A study of Mus musculus with 12 samples.

Results

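By the sample titles, the genes described here reached their highest level at an intermediate point of reprogramming. Mouse embryonic fibroblasts (MEF) had then been converted for 6 days towards induced pluripotent stem cells (iPSC). Levels are CPM, the reads of a gene per 1e+06 reads assigned to any gene. The members were chosen by their group means of CPM: a gene was taken when its mean over the Stage1 libraries was at least 5 CPM and at least 4 times the mean of each other group. Y-linked genes, several large or technical gene families and 4 single genes were left out by name. Of 23420 genes in the files, 9316 reached 5 CPM at Stage1, 29 met both thresholds and 26 remained after the exclusions by name. The module is led by Nefm, Fgfbp1, Aox3 and Nkx1-2, each of which is a member. Because the Stage1 values chose the members, every comparison of a member with Stage1 below is a description without a test, and members are tested only in the comparisons that leave Stage1 out. Calls between Stage1 and another group are given for genes outside the module, by the same edgeR fit.

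The 12 libraries fall into 4 groups of 3. MEF are the starting fibroblasts and were not sorted. Stage1 cells were taken at day 6, Stage2 cells after 4 further days, and iPSC are established cells of that kind. By the series description, Stage1, Stage2 and iPSC cells had been sorted for green fluorescent protein that reports activity of the pluripotency gene Oct4. All libraries are from a mixed C57BL/6 x 129 background and no treatment differs between groups in the labels, which do not give the reprogramming factors or say whether the libraries of a group came from separate animals or cultures. The p-values therefore measure the spread between these libraries, which may be technical.

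The labels disagree with each other about the groups. Titles were used here, and the stage given among the characteristics names another group in 12 of 12 libraries, calling the libraries titled Stage1 MEF. The collagen gene Col1a1 stood at 1.53, 1.54 and 1.22 CPM in the libraries titled Stage1, and at 1919, 2598 and 2959 CPM in those titled MEF. It stood at 30.8, 17.5 and 21.9 CPM in those titled Stage2 and at 7.02, 8.67 and 10.5 CPM in those titled iPSC, so it was lowest in those titled Stage1. Pou5f1, which encodes Oct4, stood at 446, 534 and 569 CPM in libraries titled Stage1 and at 0.785, 3.25 and 2.1 CPM in those titled MEF. These values go with the title for MEF. They do not settle the order of Stage1, Stage2 and iPSC, for which the titles are taken as they stand. Gene totals were 8916223 to 19011944 reads. Reads that the counting assigned to no feature were 8.86 to 9.42% in MEF, 38.1 to 45.2% at Stage1, 47.4 to 53.4% at Stage2 and 35.0 to 44.3% in iPSC, and their part in the results was not tested. In bulk RNA, fewer cells that express a gene and less of its RNA per cell cannot be told apart.

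Reprogramming replaces the expression programme of a fibroblast with that of a pluripotent cell, and cells on the way pass through states that resemble neither end. Some genes switched on in these states belong to other lineages, and their transcripts are usually reduced again as the pluripotent state stabilises. Cells with an active Oct4 reporter have already switched on part of the pluripotency network.

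The 26 genes together made up 43.6 to 57.1 CPM in MEF, 987 to 998 CPM at Stage1, 148 to 159 CPM at Stage2 and 110.0 to 149.6 CPM in iPSC. The rule itself sets Stage1 above the other groups in this sum, so nothing is read from that. The sum varied little among the Stage1 libraries, while single members varied more, as given below. The level next below Stage1 was at Stage2 for 18 members, in iPSC for 5 (Ntn1, Aldh3a1, Avil, Frrs1l and Dmrtc1b) and in MEF for 3 (Gm11127, Nt5e and Adamts7). In every member the lowest Stage1 library lay above the highest library of the other groups, which the rule favours. All 26 passed the filter on low counts, and all 26 were called higher at Stage1 than in MEF, Stage2 and iPSC, against 6.91% of the 14770 genes tested. As the rule used these contrasts, nothing is read from that count.

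**Figure D1:**
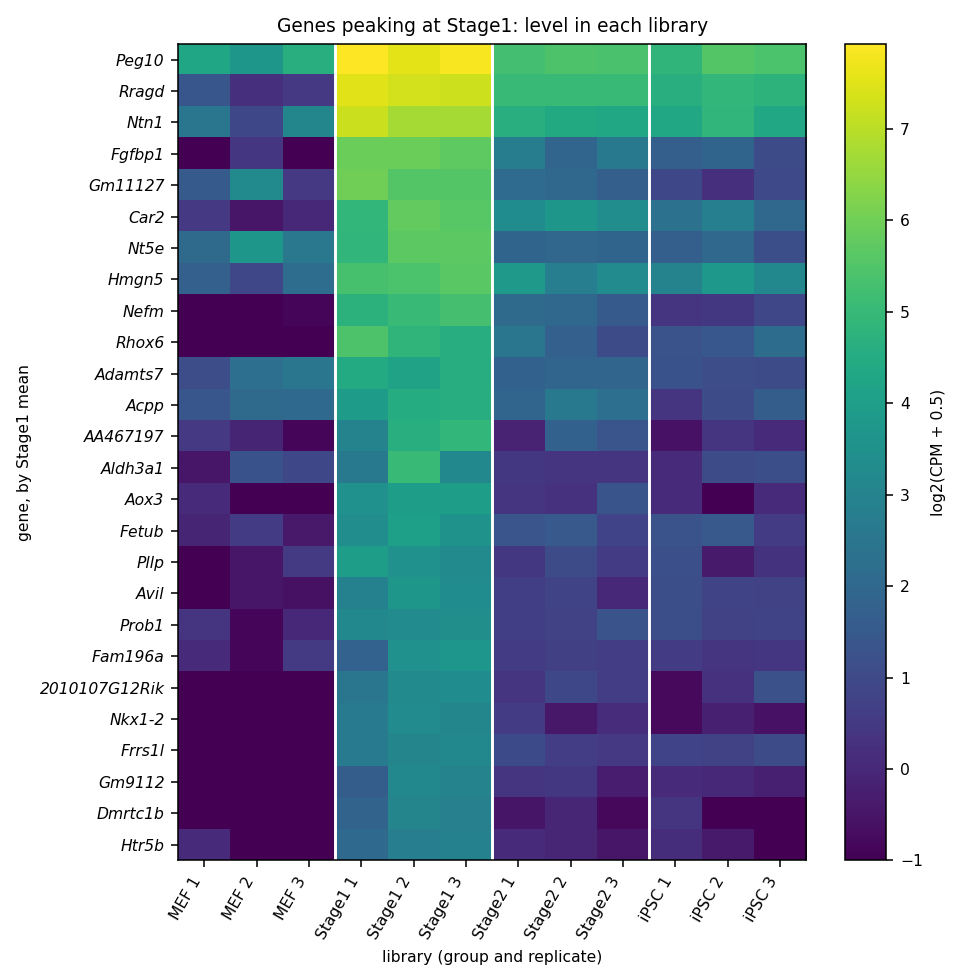
Level of each of the 26 members (rows, by Stage1 mean) in each of the 12 libraries (columns), as log2(CPM + 0.5). The 3 Stage1 columns are brightest in every row, Stage2 and iPSC columns are intermediate for most rows, and MEF columns are darkest for most.

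The threshold cuts through a continuous range. Just inside it were Car2, Hmgn5, Acpp and Rragd, whose Stage1 means were 4.13, 4.43, 4.64 and 5.16 times the next highest group mean. Just outside were Tmem144 at 3.97 times, Ano1 at 3.85 times, Gja1 at 3.68 times and Insm1 at 3.57 times. The members furthest inside were Dmrtc1b at 22.4 times, Htr5b at 14 times, Nkx1-2 at 13 times, Gm11127 at 12.8 times, Aldh3a1 at 12.1 times and Aox3 at 12 times.

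The order of the members by level changes when transcript length is taken into account. Per kilobase of merged exons, Gm11127 had the highest Stage1 level with 38.5 CPM per kilobase. Peg10 had 33.1, Rragd 31.9, Rhox6 30.9 and Fgfbp1 25.3 CPM per kilobase. The long transcripts of Aox3 and Frrs1l had 1.97 and 1.1 CPM per kilobase at Stage1.

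Secreted proteins form the first group by role. Ntn1 (chr11:68209364-68400823, GENCODE M21 gene span on mm10, as for the other spans) encodes netrin-1, a laminin-related guidance cue of axons that has also been studied in pluripotent cells. Its levels were 5.16, 1.43 and 7.99 CPM in MEF, 149, 106 and 105 CPM at Stage1, 24.6, 21.1 and 19.4 CPM at Stage2 and 20.1, 29.1 and 19.5 CPM in iPSC. No MEF library reached the level of any Stage2 or iPSC library, and Stage2 and iPSC overlapped. Ntn1 was higher at Stage2 than in MEF by 1.79 ± 0.38 on the log2 scale (log2 fold change ± SE, edgeR adjusted p = 0.000551). Of the genes for netrin receptors, Unc5b averaged 10.3 ± 0.768 CPM at Stage1 and 241 ± 87.9 CPM in MEF (SD, n = 3 each), and was lower at Stage1. Neo1 averaged 30.1 ± 10.1 CPM at Stage1 and 71.9 ± 33.6 CPM in MEF, and was also lower at Stage1, while Dcc averaged 0.832 ± 0.146 CPM at Stage1 and 0.0175 ± 0.0304 CPM in MEF and was higher at Stage1. The other netrins Ntn3 and Ntn4 were below 1 CPM in every Stage1, Stage2 and iPSC library. Among the genes of this family measured, the Stage1 peak was therefore that of Ntn1.

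Fgfbp1 (chr5:43978858-43981779) encodes a secreted carrier that releases fibroblast growth factors (FGF) from the matrix. It had 0, 0.826 and 0 CPM in MEF, 59.9, 59.9 and 52.2 CPM at Stage1, 6.27, 3.26 and 5.54 CPM at Stage2 and 2.76, 3.2 and 1.55 CPM in iPSC. Every iPSC library lay below every Stage2 library, but the difference of -0.87 ± 0.46 did not pass the test (edgeR adjusted p = 0.207). At Stage2 it was higher than in MEF by 3.53 ± 0.62 on the log2 scale (edgeR adjusted p = 6.04e-05). The FGF ligands and Fgfbp3 did not share its pattern. Of 14 such genes tested, 5 were higher and 5 lower at Stage1 than in MEF. None of the 14 was higher at Stage1 than in all 3 other groups, a count of 0 by edgeR that was also 0 at an unadjusted p below 0.05 and with DESeq2. Of all genes tested only 6.91% were, so 0 of 14 does not set these genes apart. At Stage2, 10 of the 14 were higher than at Stage1 and 0 lower, again 0 by both other rules. They include Fgf4, the main FGF ligand of pluripotent cells, with 477 ± 52.8 CPM at Stage2 and 186 ± 7.74 CPM at Stage1. For scale, 44.2% of all genes tested were higher and 36.1% lower at Stage1 than in MEF, and 20.6% were higher and 19.8% lower at Stage2 than at Stage1.

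Adamts7, a secreted metalloprotease of the matrix, averaged 3.71 ± 1.81 CPM in MEF, 20.5 ± 3.01 at Stage1, 3.14 ± 0.195 at Stage2 and 1.68 ± 0.166 in iPSC. It shares 122 exon bases with Tbc1d2b on the opposite strand, and the counting's use of strand is not given in the sources used here. The related Adamts12 went the other way, with 0.82 ± 0.255 CPM at Stage1 and 126 ± 22.6 CPM in MEF. Fetub, the protease inhibitor fetuin B known for its role in fertilisation, averaged 0.567 ± 0.378 CPM in MEF, 12.3 ± 3.21 at Stage1, 1.87 ± 0.547 at Stage2 and 1.77 ± 0.692 in iPSC. Its gene neighbour and relative Ahsg, fetuin A, stayed below 1.2 CPM in every library.

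A pair of members, Nt5e and Acpp, encode enzymes that can turn extracellular AMP into adenosine at the cell surface. Nt5e (chr9:88327197-88372092), also known as CD73, had 3.7, 12.7 and 5.52 CPM in MEF, 29.2, 51.1 and 51.1 CPM at Stage1, 3.13, 3.34 and 3.18 CPM at Stage2 and 2.76, 3.41 and 1.73 CPM in iPSC. It was the only member called lower at Stage2 than in MEF, by -1.62 ± 0.40 on the log2 scale (edgeR adjusted p = 0.0014), with no overlap between those groups. Acpp, prostatic acid phosphatase, had 2.13, 3.8 and 3.63 CPM in MEF, 14.8, 22.8 and 23.1 CPM at Stage1, 3.24, 5.56 and 4.29 CPM at Stage2 and 0.80, 1.56 and 2.64 CPM in iPSC. Both genes thus had a level in fibroblasts, a higher one at Stage1, and a lower one in iPSC than in MEF. Entpd1, which supplies AMP from ATP at the surface, averaged 0.784 ± 0.57 CPM at Stage1 and 3.68 ± 1.56 CPM in MEF and was lower at Stage1. Ada, which degrades adenosine, averaged 2.67 ± 1.24 CPM at Stage1 and 12.1 ± 2.49 CPM in MEF and was lower as well. Slc29a1, an adenosine transporter, averaged 51 ± 8.02 CPM at Stage1 and 24.3 ± 10.3 CPM in MEF and was higher.

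Enzymes of small-molecule metabolism and transport form the third group. Rragd (chr4:32983037-33022180) encodes RagD, one of the GTPases that recruit the growth kinase complex mTORC1 to lysosomes when amino acids are present. Its levels were 2.13, 0.66 and 0.894 CPM in MEF, 185, 158 and 152 CPM at Stage1, 31.9, 31.6 and 32.5 CPM at Stage2 and 24.4, 29.7 and 26.7 CPM in iPSC, with narrow groups that did not overlap. It had a large and precise difference between Stage2 and MEF, 4.49 ± 0.25 on the log2 scale (edgeR adjusted p = 2.04e-11). The other Rag GTPases did not peak with it. Rragc averaged 75.7 ± 5.22 CPM in MEF, 37.5 ± 5.11 at Stage1, 36.3 ± 2.84 at Stage2 and 24.2 ± 3.75 in iPSC. Rragb averaged 0.183 ± 0.128 CPM in MEF, 15.6 ± 4.84 at Stage1, 40.3 ± 5.21 at Stage2 and 20.8 ± 3.11 in iPSC, and was higher at Stage2 than at Stage1. Rraga averaged 12.9 ± 0.984 CPM at Stage1 and 26.3 ± 5.57 CPM in MEF and was lower.

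Car2 (chr3:14886273-14900770), a cytosolic carbonic anhydrase that interconverts carbon dioxide and bicarbonate, had 0.897, 0.22 and 0.526 CPM in MEF, 29.9, 54.6 and 48 CPM at Stage1, 9.61, 12.6 and 9.83 CPM at Stage2 and 4.62, 6.68 and 3.46 CPM in iPSC. The 4 groups did not overlap, so Car2 stepped down after Stage1 in each later group. Car12, a membrane-bound carbonic anhydrase, was also highest at Stage1, by a smaller margin, with 4.62 ± 0.784 CPM in MEF, 5.98 ± 0.548 at Stage1, 3.39 ± 0.797 at Stage2 and 3.49 ± 0.796 in iPSC. It was called lower at Stage2 and in iPSC than at Stage1, and its difference between Stage1 and MEF did not pass the test. Car13 and Car4 had other patterns. The cytosolic Car13 averaged 5.63 ± 0.646 CPM at Stage1 and 12.1 ± 1.76 CPM in MEF and was lower at Stage1. The membrane-anchored Car4 stood at 6.13 ± 0.27 CPM in Stage2 cells and 0.109 ± 0.188 CPM in Stage1 cells and was higher at Stage2.

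Aox3 (chr1:58113130-58200698) is one of the mouse aldehyde oxidases, which carry a molybdenum cofactor and oxidise aldehydes and nitrogen-containing rings. It had 0.561, 0 and 0 CPM in MEF, 11, 15.4 and 15.1 CPM at Stage1, 0.756, 0.715 and 2.0 CPM at Stage2 and 0.533, 0 and 0.546 CPM in iPSC. The lowest Stage1 library lay several times above the highest library of any other group. The neighbouring genes of the same cluster on chromosome 1 stayed low throughout. Aox1 averaged 1.23 ± 0.449 CPM in MEF, 1.56 ± 0.167 at Stage1, 1.96 ± 0.426 at Stage2 and 1.41 ± 0.421 in iPSC. Aox4 averaged 0.84 ± 0.26 CPM at Stage1 and had no count in MEF. Of 9 other genes of molybdenum cofactor enzymes or its synthesis that were tested, 3 were higher and 3 lower at Stage1 than in MEF. By edgeR 0 were higher at Stage1 than in all 3 other groups, against 6.91% of all genes, and 0 at an unadjusted p below 0.05 and with DESeq2.

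Aldh3a1 (chr11:61207537-61218421), an aldehyde dehydrogenase abundant in cornea and a known target of the aryl hydrocarbon receptor, had 0.224, 1.87 and 1.42 CPM in MEF, 5.56, 32.3 and 8.55 CPM at Stage1, 0.864, 0.795 and 0.813 CPM at Stage2 and 0.533, 1.56 and 1.73 CPM in iPSC. Its Stage1 mean rests mostly on replicate 2, and its SD at Stage1 was 14.7 CPM around a mean of 15.5 CPM. Aldh3a2, the next gene on chromosome 11, averaged 12.3 ± 0.74 CPM at Stage1 and 55.8 ± 13 CPM in MEF and was lower at Stage1. Among 4 other tested targets of the receptor, 1 was higher at Stage1 than in MEF, Tiparp, and 3 were lower. The member listed as 2010107G12Rik is annotated as Slc23a4, a relative of the ascorbate transporters whose rat counterpart carries nucleobases. It had no count in MEF and 5.21, 9.16 and 9.61 CPM at Stage1, against 0.756, 1.43 and 1.03 CPM at Stage2 and 0.0889, 0.711 and 1.82 CPM in iPSC.

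Genes best known from neurons and glia form the fourth group. Nefm (chr14:68082590-68124846) encodes the medium subunit of neurofilaments, the intermediate filaments of axons. It had a single read in the 3 MEF libraries together, 26.1, 32.1 and 38.9 CPM at Stage1, 3.78, 3.42 and 2.37 CPM at Stage2 and 0.80, 0.853 and 1.36 CPM in iPSC. The 4 groups did not overlap. The ratio of Stage1 to MEF was 1480, with a 95% counting interval of 265 to 58400, and for Stage2 against MEF it was 143, with an interval of 25.2 to 5710. These intervals cover counting error only. Nefm was also lower in iPSC than at Stage2, by -1.56 ± 0.34 on the log2 scale (edgeR adjusted p = 0.00589), and held that call when any single library was left out.

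Nefl, the light neurofilament subunit, lies beside Nefm on chromosome 14 and missed the 4-fold threshold. It averaged 0.0374 ± 0.0648 CPM in MEF, 106 ± 11.9 at Stage1, 36.9 ± 1.57 at Stage2 and 35.7 ± 2.81 in iPSC, and was higher at Stage1 than in each other group. The annotated transcripts of the pair share 1108 exon bases on opposite strands. Reads there may be listed as ambiguous by the counting and counted for neither gene. Over Nefl the ratio of Nefm was not constant, since Nefl kept about the same level at Stage2 and in iPSC while Nefm fell. Nefh, the heavy subunit, ran in another order, with 4.1 ± 0.126 CPM at Stage1, 27 ± 2.57 CPM at Stage2 and 72.8 ± 14.4 CPM in iPSC. Prph, a filament protein of peripheral neurons, had 0.322 ± 0.235 CPM at Stage1, 4.33 ± 0.939 CPM at Stage2 and 11.4 ± 1.44 CPM in iPSC. Of 12 tested genes in a list of neural markers that holds no member, 9 were higher and 2 lower at Stage1 than in MEF. By edgeR 0 were higher at Stage1 than in all 3 other groups, against 6.91% of all genes, and 0 at an unadjusted p below 0.05 and with DESeq2. Summed over the 16 genes of that list, the level was 82.4 to 108 CPM in MEF, 121 to 141 CPM at Stage1, 285 to 329 CPM at Stage2 and 371 to 420.0 CPM in iPSC. This sum was highest in iPSC, unlike Nefm. Most of it after MEF came from Stmn2, which averaged 91.5 CPM at Stage1, 219 CPM at Stage2 and 289 CPM in iPSC.

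The other members of this group were low at every point. Avil, advillin, is an actin-binding protein of sensory neurons and averaged 9.85 ± 2.89 CPM at Stage1. Fam196a, whose protein sits at inhibitory synapses, averaged 8.8 ± 5.09 CPM at Stage1. Its gene lies inside Dock1 on the other strand with no shared exon base, and Dock1 was highest at Stage2, with 160.0 ± 8.47 CPM there and 115 ± 13.7 CPM at Stage1. Frrs1l, which helps to assemble AMPA-type glutamate receptors, averaged 7.49 ± 1.28 CPM at Stage1 and had no count in MEF. Htr5b, a serotonin receptor gene of rodents, averaged 5.76 ± 1.88 CPM at Stage1, and its relative Htr5a stayed below 1 CPM in every library. Pllp, plasmolipin, a membrane protein of myelin and of epithelia, averaged 11.7 ± 2.98 CPM at Stage1. It shares 1128 exon bases with the antisense transcript Gm45767, so it may share reads with that transcript. In the other groups these 5 genes had means between 0 and 1.38 CPM. Avil and Tsfm share 165 exon bases on opposite strands, but Tsfm was at 43.0 CPM in iPSC and 39.6 CPM at Stage1, a pattern unlike that of Avil.

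**Figure D2:**
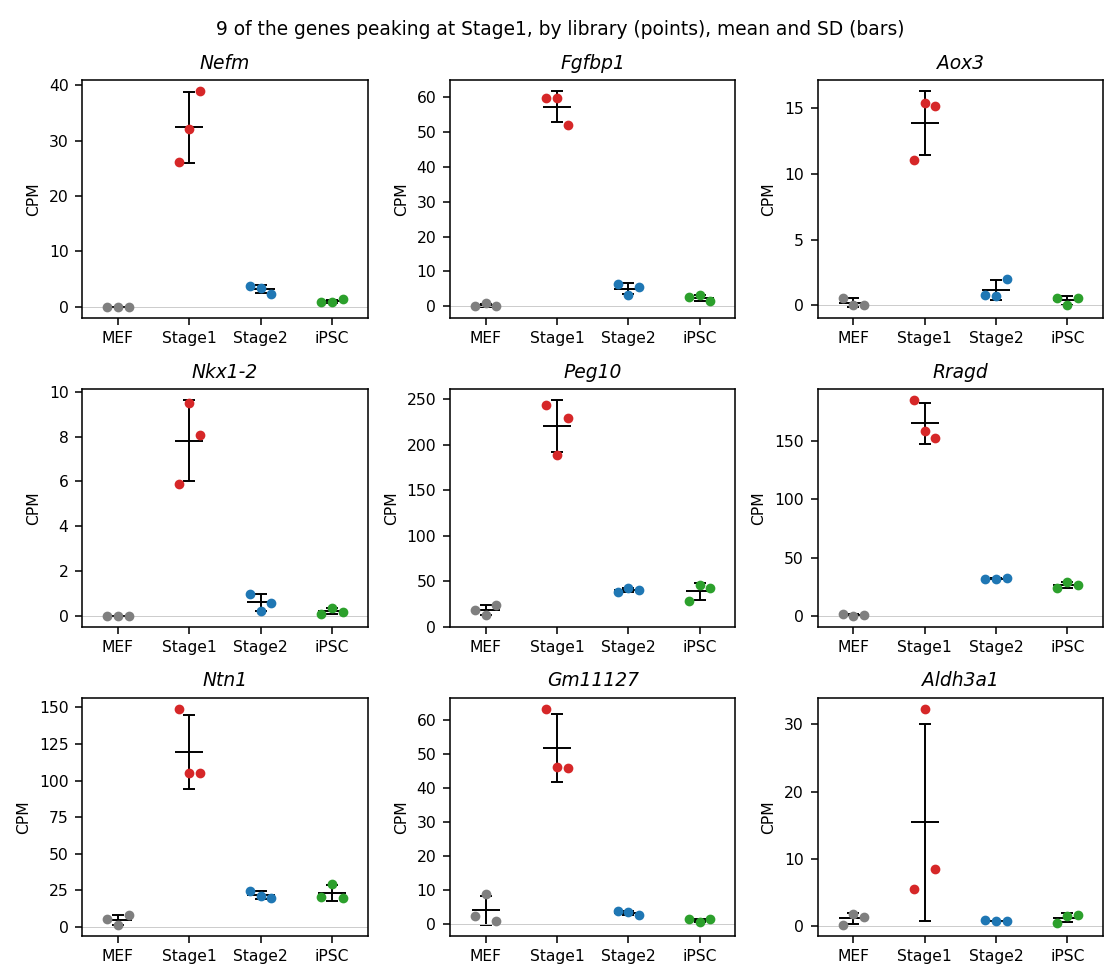
CPM of 9 members in each library (points) with the mean and SD of each group (bars), on linear axes. All Stage1 points lie above all others in each panel. Aldh3a1 has 1 Stage1 library at 32.3 CPM and the other 2 at 5.56 and 8.55 CPM.

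Regulators of transcription and chromatin form the fifth group. Nkx1-2 (chr7:132594878-132599637) is a homeobox gene of the caudal epiblast, the part of the gastrulating embryo where neural and mesodermal precursors arise. It had no count in MEF, 5.9, 9.51 and 8.06 CPM at Stage1, 0.972, 0.238 and 0.591 CPM at Stage2 and 0.0889, 0.355 and 0.182 CPM in iPSC. The Stage1 level was at least 118-fold that of MEF, taking 3 counts over the 3 MEF libraries as the floor. Nkx1-2 may share reads with the antisense transcript Gm16764, with which it has 541 exon bases in common. Of 4 other Nkx genes that were tested, 4 were higher at Stage1 than in MEF. By edgeR 0 were higher at Stage1 than in all 3 other groups, against 6.91% of all genes, and 0 at an unadjusted p below 0.05 and with DESeq2. So few genes do not set these relatives apart. In a list of genes of the primitive streak and caudal epiblast, 15 besides Nkx1-2 were tested. Of these, 11 were higher and 2 lower at Stage1 than in MEF, and 3 were higher at Stage1 than in all 3 other groups, against the 6.91% of all genes given above. They include Sp5, a transcription factor induced by Wnt signalling, with 1.95 ± 0.446 CPM at Stage1 and no count in MEF, and the ligand Wnt5b, with 3.88 ± 0.717 CPM at Stage1 and 1.49 ± 0.664 CPM in MEF. The third is one of the genes that met the thresholds and was left out by name. Brachyury (T), the defining gene of the streak, had 3.0 ± 1.35 CPM at Stage2 and 2.21 ± 1.46 CPM at Stage1, which did not pass the test, and Eomes was higher at Stage2, with 14.8 ± 2.07 CPM there and 6.04 ± 2.94 CPM at Stage1. In the streak list, 6 of 15 were higher and 4 lower at Stage2 than at Stage1.

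Wnt and beta-catenin target genes, listed because Sp5 and T respond to that pathway, were also mixed. Of 20 tested, 11 were higher and 7 lower at Stage1 than in MEF, and 6 were higher and 5 lower at Stage2 than at Stage1. Axin2, a feedback inhibitor and common readout of the pathway, had 10.7 ± 3.5 CPM at Stage1 and 1.09 ± 0.613 CPM in MEF, and Lef1, a transcription factor of the pathway, had 77.3 ± 12.8 CPM at Stage2 and 1.87 ± 1.56 CPM at Stage1. Some genes stand in both lists, and some of the list genes are named because of their values.

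Rhox6 (chrX:37826910-37829857) belongs to the reproductive homeobox cluster on the X chromosome, which is active in placenta and germ cells. It had no count in MEF, 42.7, 27.9 and 23 CPM at Stage1, 5.18, 2.86 and 1.55 CPM at Stage2 and 1.96, 2.2 and 3.91 CPM in iPSC, which is at least 490-fold higher at Stage1 than in MEF with the same floor. Its close relative Rhox9 had a smaller peak of the same kind, with no count in MEF, 10.3, 6.42 and 7.57 CPM at Stage1, 3.24, 2.3 and 1.11 CPM at Stage2 and 1.87, 3.69 and 2.55 CPM in iPSC. Reads that align to both genes of this pair may be listed as not unique and counted for neither. Rhox5, the next gene of the cluster, was highest at Stage2, with 109.9 ± 11 CPM there and 59.2 ± 12.2 CPM at Stage1. Of 5 tested trophoblast markers outside the members, 3 were higher and 2 lower at Stage1 than in MEF, and only Rhox9 was higher at Stage1 than in all 3 other groups. Summed over 13 such genes, the level was 2.69 to 4.68 CPM in MEF, 13.2 to 21.4 CPM at Stage1, 28.5 to 37.7 CPM at Stage2 and 24.9 to 38.6 CPM in iPSC. That sum was larger at Stage2 and in iPSC than at Stage1, without overlap.

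Hmgn5, an X-linked nucleosome-binding protein that loosens compact chromatin, averaged 2.74 ± 1.34 CPM in MEF, 43.5 ± 5.13 at Stage1, 9.8 ± 3.48 at Stage2 and 9.67 ± 3.01 in iPSC. Hmgn2 also had its highest mean at Stage1, by a smaller margin, with 160.2 ± 33.7 CPM in MEF, 201 ± 6.72 at Stage1, 144 ± 8.86 at Stage2 and 166 ± 18.4 in iPSC, and of its differences with Stage1 only that of Stage2, which was lower, passed the test. Hmgn1 averaged 215 ± 21.1 CPM in MEF, 421 ± 40.7 at Stage1, 367 ± 7.77 at Stage2 and 536 ± 11.2 in iPSC, and was higher at Stage1 than in MEF and lower at Stage2 than at Stage1. Hmgn3 averaged 11.2 ± 2.59 CPM at Stage1 and 25.1 ± 5.28 CPM in MEF and was lower at Stage1. The fourth member of this group is Dmrtc1b, an X-linked gene of the DMRT-like family.

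Dmrtc1b lies head to head with Gm9112, a predicted gene that is also a member. Dmrtc1b had no count in MEF, 3.06, 7.96 and 6.92 CPM at Stage1, 0.216, 0.477 and 0.0739 CPM at Stage2 and 0.80, 0 and 0 CPM in iPSC. Gm9112 had no count in MEF, 2.64, 8.48 and 7.49 CPM at Stage1, 0.756, 0.874 and 0.296 CPM at Stage2 and 0.533, 0.497 and 0.364 CPM in iPSC. Replicate 1 was lowest and replicate 2 highest of the Stage1 libraries for both. In RefSeq their start sites are 211 bases apart, and the promoter windows, taken from 250 bases before to 50 bases after each start, share 290 of 300 bases. Reads that align to Dmrtc1b and also to its copies may be listed as not unique and left uncounted. Of the copies, Dmrtc1a averaged 0.125 ± 0.0721 CPM at Stage1, and Dmrtc1c1 and Dmrtc1c2 had no count in any library, which such reads could also bring about.

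The promoter windows of 4 members are shown, the shared window of this pair, read on the strand of Dmrtc1b, and those of the leading genes Fgfbp1, Aox3 and Nkx1-2. Sequences are from RefSeq on GRCm38.p6, the build also called mm10, 5′ to 3′. They lie at chrX:102707631-102707930 (plus strand), chr5:43981750-43982049 (minus strand), chr1:58112886-58113185 (plus strand) and chr7:132599588-132599887 (minus strand). Capitals mark matches, on either strand, to the CCAAT box (letters CCAAT), the GC box (letters GGGCGG), the TATA box (letters TATAAA) and the E-box (letters CACGTG). No match overlaps another in these windows.
Dmrtc1b: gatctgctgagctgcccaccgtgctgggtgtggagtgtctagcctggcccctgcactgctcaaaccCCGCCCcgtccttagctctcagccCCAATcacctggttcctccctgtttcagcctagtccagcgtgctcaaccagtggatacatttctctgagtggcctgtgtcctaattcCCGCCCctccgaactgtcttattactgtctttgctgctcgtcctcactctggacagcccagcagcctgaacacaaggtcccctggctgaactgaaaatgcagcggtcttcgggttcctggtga
Fgfbp1: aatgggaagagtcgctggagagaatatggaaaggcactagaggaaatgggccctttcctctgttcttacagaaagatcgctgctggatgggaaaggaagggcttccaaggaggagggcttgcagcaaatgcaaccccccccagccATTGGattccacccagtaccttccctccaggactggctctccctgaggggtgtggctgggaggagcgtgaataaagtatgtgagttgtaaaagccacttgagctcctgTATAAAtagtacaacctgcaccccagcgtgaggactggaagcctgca
Aox3: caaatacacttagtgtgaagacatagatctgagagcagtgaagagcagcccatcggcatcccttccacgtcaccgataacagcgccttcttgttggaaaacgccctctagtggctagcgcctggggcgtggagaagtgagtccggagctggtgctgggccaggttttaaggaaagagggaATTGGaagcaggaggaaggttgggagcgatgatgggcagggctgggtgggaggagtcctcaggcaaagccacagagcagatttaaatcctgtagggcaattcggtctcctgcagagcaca
Nkx1-2: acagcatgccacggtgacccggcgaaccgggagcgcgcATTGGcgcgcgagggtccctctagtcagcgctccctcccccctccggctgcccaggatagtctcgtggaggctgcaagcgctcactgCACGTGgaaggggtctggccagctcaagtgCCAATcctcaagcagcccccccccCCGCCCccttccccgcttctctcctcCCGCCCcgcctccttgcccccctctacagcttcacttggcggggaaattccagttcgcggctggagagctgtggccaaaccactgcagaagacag

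The windows differ from each other in composition, with a GC content of 58% for Dmrtc1b, 53.3% for Fgfbp1, 55% for Aox3 and 67.3% for Nkx1-2. RefSeq windows were matched for 15 of the 26 members, 17 windows in all, with a median GC content of 56.7%, against 52.7% over 32851 windows. CCAAT was in 9 of the 17 and in 37.4% of all windows. GGGCGG was in 8 of the 17 and in 35.7% of all. TATAAA was in 3 of the 17 and in 13.6% of all, and in Fgfbp1 it lies after the RefSeq start, within the last 50 bases of the window. CACGTG was in 2 of the 17 (AA467197 and Nkx1-2) and in 7.15% of all. ATGCAAAT, the octamer, was in 1 of the 17 (Acpp) and in 1.74% of all, and TGANTCA was in 1 of the 17 (AA467197) and in 7.81% of all. CTTTGAT was in 0 of the 17 and in 3.73% of all. TGACGTCA was in 0 of the 17 and in 1.79% of all. The window of the head-to-head pair counts for both genes. These are matches of letters and no test was made on them.

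Peg10 (chr6:4747306-4760517), the most abundant member, is an imprinted gene derived from a retrotransposon and is needed for placental development. It had 18.7, 12.8 and 24.1 CPM in MEF, 244, 189 and 229.7 CPM at Stage1, 37.8, 42.9 and 40.4 CPM at Stage2 and 28.4, 46.2 and 42.1 CPM in iPSC. The gene lies 99 bases from Sgce, another gene expressed from the paternal copy. Sgce had 65, 47.7 and 50.3 CPM in MEF, 14.9, 5.99 and 5.21 CPM at Stage1, 2.7, 3.42 and 2.51 CPM at Stage2 and 5.6, 3.62 and 5.82 CPM in iPSC, and was lower at Stage1 than in MEF. The 2 genes of this imprinted pair thus differed in opposite directions between Stage1 and MEF, unlike Gm9112 and Dmrtc1b. Within Stage1, Sgce was highest in replicate 1, and so was Peg10.

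**Figure D3:**
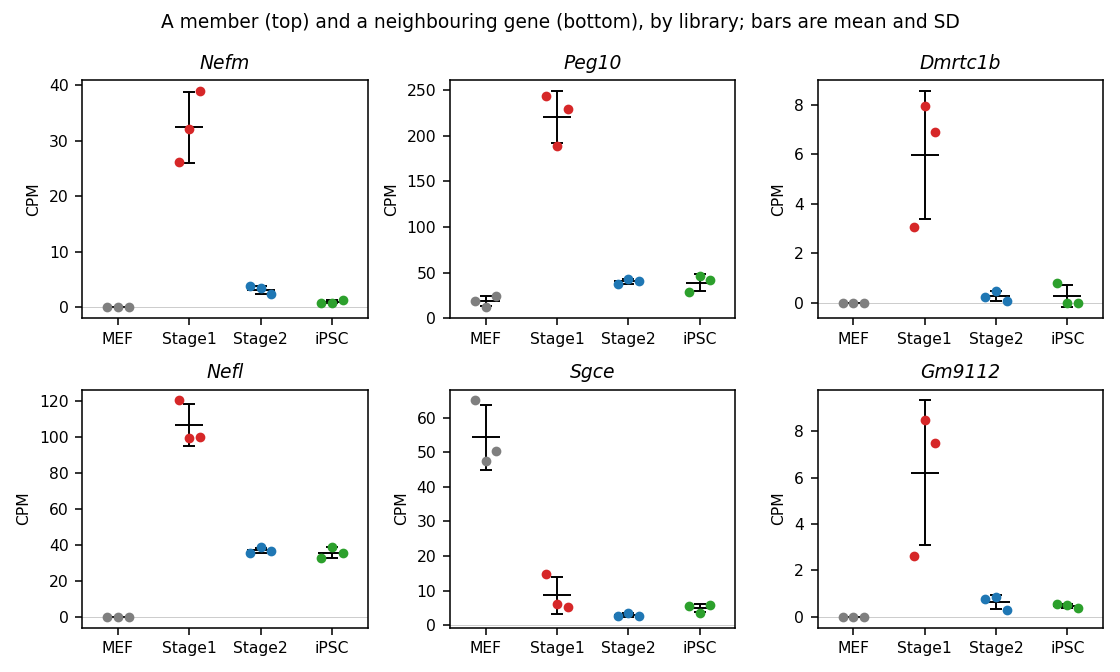
CPM in each library (points) with group mean and SD (bars) for a member (top row) and a neighbouring gene (bottom row). Nefl and Gm9112 are highest at Stage1 as Nefm and Dmrtc1b are, while Sgce is highest in MEF and its Stage1 libraries stand at 14.9, 5.99 and 5.21 CPM.

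Gm11127 (chr17:36055816-36058371) is a predicted class I gene of the major histocompatibility complex on chromosome 17. Its exons share 710 bases with Gm6034 on the opposite strand. Gm11127 had 2.36, 8.92 and 0.894 CPM in MEF, 63.3, 46.1 and 45.9 CPM at Stage1, 3.89, 3.42 and 2.73 CPM at Stage2 and 1.42, 0.639 and 1.46 CPM in iPSC. Class I genes resemble each other closely and the mixed strain background adds differences from the reference, so its reads may come in part from relatives. The classical gene H2-K1 had a reverse pattern, with 27.2 ± 5.04 CPM in MEF, 7.72 ± 4.03 at Stage1, 12.3 ± 0.139 at Stage2 and 38.1 ± 2.09 in iPSC. H2-D1 averaged 0.547 ± 0.369 CPM at Stage1 and 15.2 ± 5.88 CPM in MEF and was also lower at Stage1. H2-T24, a non-classical relative, stood at 12.4 ± 1.97 CPM in Stage2 cells and 6.8 ± 3.05 CPM in Stage1 cells, which did not pass the test, and was higher at Stage1 than in MEF.

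The last members are little described. AA467197 encodes a small mitochondrial protein and its transcript overlaps the gene of the microRNA miR-147. It had 0.897, 0.44 and 0.0526 CPM in MEF, 7.5, 23.6 and 29.4 CPM at Stage1, 0.432, 2.94 and 2.07 CPM at Stage2 and 0.178, 0.782 and 0.546 CPM in iPSC. Mir147 itself had no count in any library, but it shares 79 exon bases with AA467197 on the same strand. Reads there may be listed as ambiguous, so nothing is read from the lack of counts. Prob1 averaged 0.455 ± 0.37 CPM in MEF, 9.39 ± 0.858 at Stage1, 1.4 ± 0.457 at Stage2 and 1.39 ± 0.261 in iPSC.

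The comparisons that leave out Stage1 asked whether the members returned to the fibroblast level afterwards. At Stage2, 18 of the 26 members were higher than in MEF (69.2%, against 44.6% of all genes tested), 1 was lower (Nt5e, against 36.4%) and 7 did not pass the test. The median log2 fold change was 1.82 over members, also with the 6 genes without a count in MEF at their bound, and 0.25 over all genes tested. Beside Rragd, Car2 combined a large difference with a small SE, 4.04 ± 0.40 (edgeR adjusted p = 5.27e-08). Peg10, 0.75 ± 0.20 (edgeR adjusted p = 0.00266), had the smallest called rise. For genes without a MEF count, the level at Stage2 was at least 45.6-fold higher for Rhox6, 16.9-fold for 2010107G12Rik and Frrs1l, 9.56-fold for Gm9112, 8.69-fold for Nkx1-2 and 3.91-fold for Dmrtc1b. The members that did not pass were Gm11127, Adamts7, Acpp, Aldh3a1, Pllp, Fam196a and Htr5b.

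Every member passed the filter on low counts in a fit that includes the Stage1 libraries, which chose the members. When only Stage2 and MEF libraries were fitted, 19 members passed it, and 9 of them were called higher (47.4%, against 40.5% of the 13976 genes in that fit) and 1 lower (5.26%, against 37.3%). Of the other 9 calls, 6 belong to members that did not pass the filter there (Aox3, Avil, 2010107G12Rik, Nkx1-2, Gm9112 and Dmrtc1b), and AA467197, Fetub and Prob1 passed it but lost the call. The share of 69.2% thus rests in part on members kept through their Stage1 level, and nothing is read from it or from the median about the members as a whole. Of the 18 calls, 13 held in each of the 12 fits that left out 1 library. All of these fits kept Stage1 libraries. Avil, 2010107G12Rik, Nkx1-2 and Gm9112, which did not pass the filter without Stage1, are among the 13. AA467197 lost its call without MEF replicate 2 or 3, Stage2 replicate 2 or 3, or iPSC replicate 3, with edgeR adjusted p of 0.0922, 0.226, 0.178, 0.0913 and 0.0503 in that order. Fetub lost it without MEF replicate 1 or 3 or Stage2 replicate 1 or 2 (edgeR adjusted p = 0.0625, 0.135, 0.0669 and 0.1). Aox3 lost it without MEF replicate 2 or 3 or Stage2 replicate 3 (edgeR adjusted p = 0.0511, 0.0582 and 0.0751), and Prob1 without MEF replicate 2 or Stage2 replicate 3 (edgeR adjusted p = 0.0911 and 0.115). Dmrtc1b lost it in 7 of the 12 fits, without any of the 3 MEF libraries, Stage1 replicate 2 or 3 or Stage2 replicate 1 or 2, with edgeR adjusted p from 0.0502 to 0.156. AA467197, Aox3 and Dmrtc1b also lost the call with DESeq2. Calls that appeared were Adamts7 without MEF replicate 1 and Gm11127 without MEF replicate 3, both lower (edgeR adjusted p = 0.00181 and 0.0135), and Htr5b without MEF replicate 1 and Pllp without MEF replicate 3, both higher (edgeR adjusted p = 0.00893 and 0.0112).

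Between iPSC and Stage2 most members did not pass the test. By edgeR, 0 members were higher in iPSC (against 9.21% of all genes), and 0 were higher at an unadjusted p below 0.05 or by DESeq2. Lower in iPSC were 3 (11.5%, against 8.87% of all genes). They are Nefm, described above, Car2, -1.0 ± 0.31 (edgeR adjusted p = 0.0317), and Acpp, -1.30 ± 0.39 (edgeR adjusted p = 0.0289). Car2 lost its call without iPSC replicate 1 or 3, Stage1 replicate 3 or any of the 3 Stage2 libraries, with edgeR adjusted p from 0.052 to 0.134. Acpp lost it without iPSC replicate 1 or 2 or Stage2 replicate 2 or 3 (edgeR adjusted p = 0.146, 0.0909, 0.118 and 0.0711). The calls gained were all lower in iPSC: Gm11127 without MEF replicate 2 or 3 (edgeR adjusted p = 0.00748 and 0.0491), Fgfbp1 without MEF replicate 2 (edgeR adjusted p = 0.0325) and Adamts7 without MEF replicate 1 (edgeR adjusted p = 0.0284). When only iPSC and Stage2 libraries were fitted, 20 members passed the filter, with 5 called lower (25%, against 19.3% of 13733 genes) and 0 higher (against 16.8%). The median log2 fold change was -0.21 over members and 0.04 over all genes tested. The abundant members Peg10, Rragd and Ntn1 differed between iPSC and Stage2 by 0.05 ± 0.20, -0.14 ± 0.18 and 0.19 ± 0.35, which did not pass the test.

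In iPSC, 16 members were higher than in MEF (61.5%, against 44.9% of all genes), 4 were lower (15.4%, against 35.8%) and 6 did not pass. The lower ones were Gm11127, -2.17 ± 0.67 (edgeR adjusted p = 0.00893), Nt5e, -1.79 ± 0.41 (edgeR adjusted p = 0.000692), Adamts7, -1.48 ± 0.35 (edgeR adjusted p = 0.000797), and Acpp, -1.26 ± 0.39 (edgeR adjusted p = 0.00648). In 3 of these 4 the iPSC and MEF libraries overlapped, and Gm11127 lost its call without MEF replicate 2 (edgeR adjusted p = 0.203). The higher members include Rragd, 4.35 ± 0.25, Car2, 3.04 ± 0.42, and Ntn1, 1.97 ± 0.38. Of the 16 higher calls, 13 held in all 12 fits that left out a library, all of which kept Stage1 libraries. Among the 13 are 2010107G12Rik, Nkx1-2 and Gm9112, which did not pass the filter without Stage1. Fetub lost its call without iPSC replicate 1 or 2 or MEF replicate 1 or 3 (edgeR adjusted p = 0.0511, 0.11, 0.0621 and 0.111), and Prob1 without iPSC replicate 1 or MEF replicate 2 (edgeR adjusted p = 0.0572 and 0.0841). Dmrtc1b lost it without any of the 3 MEF libraries, Stage2 replicate 1 or iPSC replicate 1, which is the only iPSC library with a read of it (edgeR adjusted p from 0.0518 to 1). Aox3 and Htr5b without MEF replicate 1 and Pllp without MEF replicate 3 were called higher (edgeR adjusted p = 0.018, 0.0163 and 0.0237). When only iPSC and MEF libraries were fitted, 18 members passed the filter, with 10 called higher (55.6%, against 40% of 13791 genes) and 4 lower (22.2%, against 37.8%). The calls of 2010107G12Rik, Nkx1-2, Gm9112 and Dmrtc1b are of members that did not pass the filter there. As above, nothing is read from the shares about the members as a whole. All 3 comparisons share libraries pairwise, so their calls are not independent of each other.

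**Figure D4:**
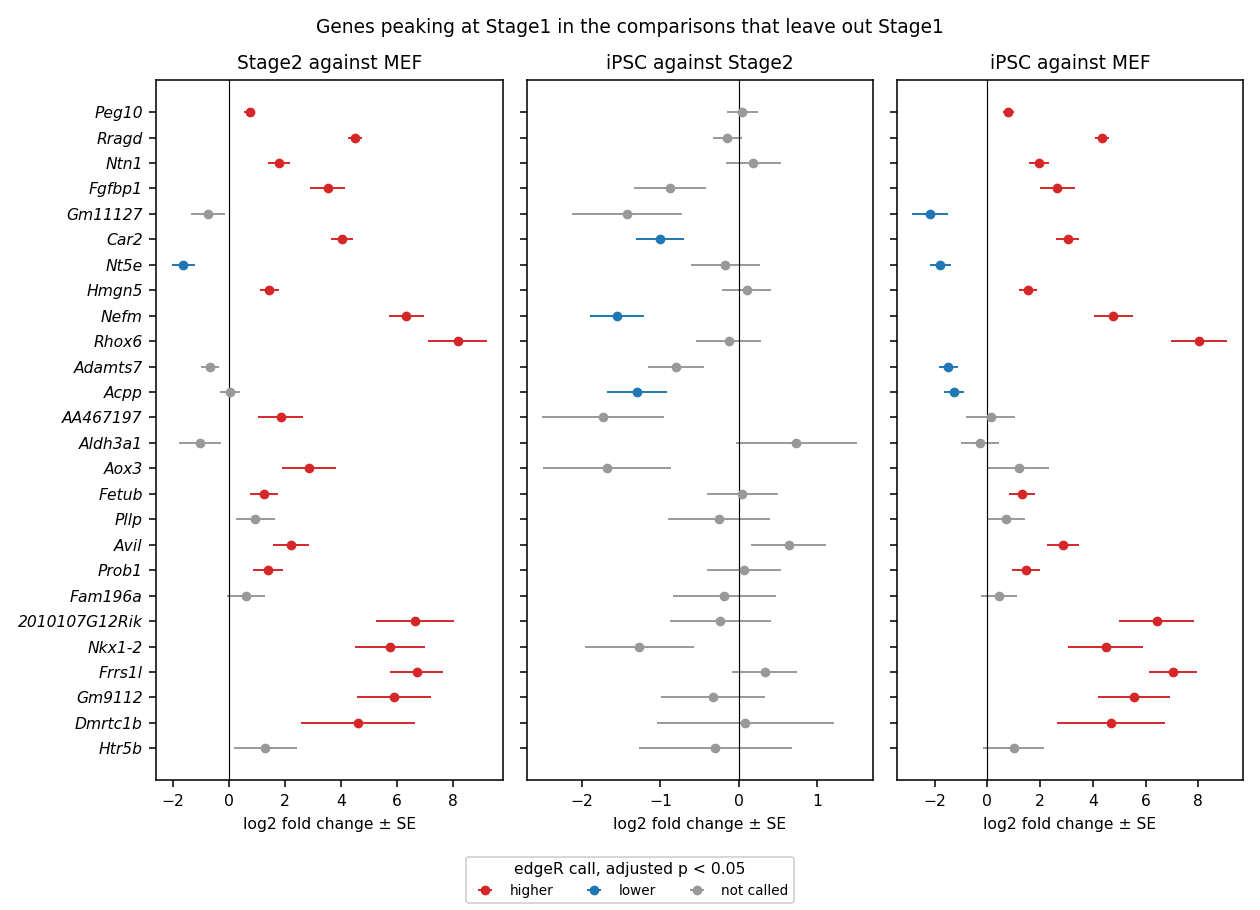
Log2 fold change ± SE of each member for Stage2 against MEF, iPSC against Stage2 and iPSC against MEF, with calls at an edgeR adjusted p below 0.05 in colour. Most members lie right of 0 against MEF. Called higher than in MEF are 18 at Stage2 (69.2%, against 44.6% of all genes tested) and 16 in iPSC (61.5%, against 44.9%). Some of these calls are of members kept in the fit through their Stage1 level, and nothing is read from the shares. In iPSC against Stage2 only Car2, Nefm and Acpp are called, all lower (11.5%, against 8.87% of all genes tested). Values of genes without a MEF count depend on the fit and are no bound.

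The 3 Stage1 libraries did not carry the module evenly. Replicate 1 was the lowest of them for 18 of 26 members, and for 29.9% of 8074 other genes in the same range of Stage1 means. The median coefficient of variation over the Stage1 libraries was 24.3% for members and 9.49% for those genes. Among genes from 5 to 60 CPM, replicate 1 was the lowest for 18 of 23 members and for 25.9% of 5903 others, with median coefficients of 26.0% and 11.3%. The rule chose the members by their Stage1 values, and the other genes were matched only on the range of Stage1 means. Nothing is therefore read from these differences. The widest spread was in Aldh3a1, Fam196a, AA467197 and Gm9112. Fam196a had 2.99, 11 and 12.5 CPM at Stage1, the first of which is replicate 1. Replicate 1 was highest for 6 members, the abundant Peg10, Rragd, Ntn1 and Gm11127 as well as Rhox6 and Pllp. The summed level was nearly equal in the 3 libraries, and 755, 798 and 765 CPM without Peg10. Summed fibroblast markers were 682 CPM in Stage1 replicate 1, and 358 and 419 CPM in replicates 2 and 3, against 39941 to 46322 CPM in MEF. Most of the Stage1 sum came from Fn1, with 432 ± 172 CPM. In Stage1 replicates 1, 2 and 3, Col1a1 had 1.53, 1.54 and 1.22 CPM and Acta2 had 1.81, 4.54 and 3.58 CPM. Summed pluripotency genes were 3866, 3732 and 3929 CPM in the 3 Stage1 libraries. The part of either in the spread was not tested. Without Stage1 replicate 1, all 26 genes still met the rule.

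**Figure D5:**
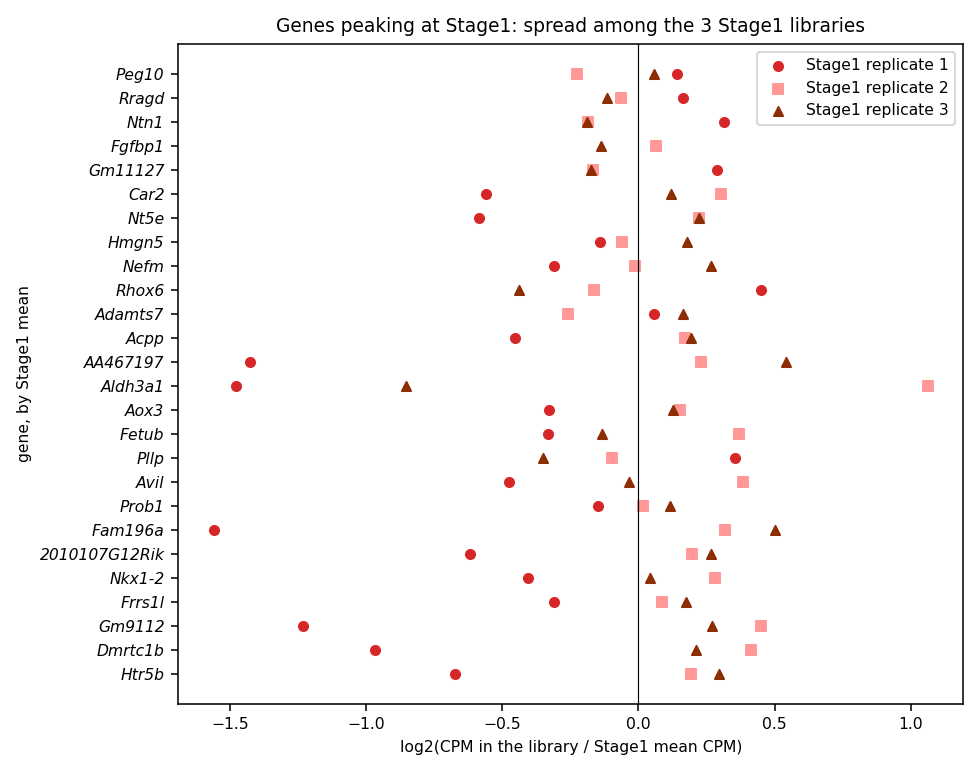
Log2 ratio of each Stage1 library to the Stage1 mean for each member, by Stage1 mean from the top. Replicate 1 (circles) is highest for Peg10, Rragd, Ntn1 and Gm11127 and lowest for 18 members, below -1 for AA467197, Aldh3a1, Fam196a and Gm9112.

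Markers of other cell types were set beside the module. Of 21 fibroblast markers, 21 were lower at Stage1 than in MEF, and at Stage2 17 were higher than at Stage1. Their summed levels were 358 to 682 CPM at Stage1, 1506 to 1808 CPM at Stage2 and 714 to 762 CPM in iPSC. Most of these sums came from Fn1, which averaged 432 CPM at Stage1, 1332 CPM at Stage2 and 560 CPM in iPSC. Of 18 pluripotency genes, 18 were higher at Stage1 than in MEF. Epidermal markers summed to 43.9 to 50.3 CPM in MEF, 137 to 166 CPM at Stage1, 96.1 to 111 CPM at Stage2 and 109 to 121 CPM in iPSC, and were thus highest at Stage1 without overlap. Most of the Stage1 sum came from Perp and Sfn, with Sfn at 48.6 ± 12.7 CPM. Of 8 tested, 6 were higher and 1 lower at Stage1 than in MEF, 2 were higher and 2 lower at Stage2 than at Stage1, and 3 were higher and 3 lower in iPSC than at Stage1. Krt17 and Ppl were higher at Stage2 and in iPSC than at Stage1, and Evpl in iPSC. Krt17, an epidermal keratin, averaged 0.39 CPM at Stage1, 4.12 CPM at Stage2 and 5.27 CPM in iPSC. Only Perp was higher at Stage1 than in all 3 other groups, with 65.2 ± 3.12 CPM at Stage1. Of 9 macrophage markers tested, 7 were lower at Stage1 than in MEF and 0 higher by edgeR, as at an unadjusted p below 0.05 and with DESeq2. Of 10 primitive endoderm markers, 2 were higher and 6 lower at Stage1 than in MEF, and of 11 markers of 2-cell-like cells 5 were higher and 0 lower, also 0 at an unadjusted p below 0.05 and with DESeq2. In iPSC against Stage1, 10 of those 11 were higher, against 21.3% of all genes higher and 18.1% lower in that comparison. All markers of the fibroblast, neural, epidermal, trophoblast, endoderm and macrophage lists that are in the files had a read in at least 1 Stage1 library. Their part in the levels of the members was not tested.

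Members were scattered over the genome, with more on the X chromosome than genes in general. Hmgn5, Rhox6, Gm9112 and Dmrtc1b are X-linked, 4 of 26 (15.4%), against 3.54% of 13860 tested genes placed by symbol. Gm9112 and Dmrtc1b share a start region and are not independent. Of 34 tested neighbouring genes that are not members, 6 were higher at Stage1 than in all 3 other groups (17.6%, against the 6.91% of all genes). They are Nefl beside Nefm, Prom1 beside Fgfbp1, Ankrd6 beside Rragd, Lhpp beside Nkx1-2, and Ccdc93 and Ddx18 on either side of Htr5b. Prom1, a surface protein used as a stem cell marker, averaged 0.391 CPM in MEF, 34.1 CPM at Stage1, 11.5 CPM at Stage2 and 15.3 CPM in iPSC, and lies 11841 bases from Fgfbp1. Lhpp, a phosphatase gene 11001 bases from Nkx1-2, averaged 6.04 CPM in MEF, 15 CPM at Stage1, 5.76 CPM at Stage2 and 5.40 CPM in iPSC. The other 28 tested neighbours did not meet that rule, and no test of the share was made.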

How the data were processed

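Sequenced RNA came from mouse cells in 12 libraries, with 3 for each of the 4 groups. The deposited files hold raw counts of reads per gene symbol. Per the submitters' processing notes, the tools were TopHat2 2.0.9, Bowtie2 2.2.6, SAMtools 0.1.19, HTSeq 0.5.4p3 and DESeq2 1.12.4, with the build mm10. Strandedness and annotation version are not given in the sources used here. The 5 HTSeq summary lines stayed out of totals and tests.

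Groups were taken from titles. Levels are CPM of gene totals, as values per library or mean ± SD (n = 3). All 4 groups entered a single edgeR 4.0.16 quasi-likelihood fit (R 4.3.3, filterByExpr, TMM, 14770 genes), with a Benjamini-Hochberg adjusted p below 0.05 as the call and the SE taken as the size of the log2 fold change divided by the root of its F statistic. A gene without counts in a group is bounded with 3 counts over the group, and counting error alone is covered. The procedure was tested on simulated data.

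The members, the 15 gene lists, the relatives of members and the tests were chosen with earlier results of these data known. Members may be named by the rule that picks the leading 4, the 10 most abundant, the 6 with the largest ratio to the next group and called members of each comparison, and the remaining members are accounted for. Of the genes outside the module, only list genes, relatives, threshold genes and neighbours are named. The neighbours were chosen after their values were seen. Gene positions are from GENCODE M21 and promoters from RefSeq, both on GRCm38 (mm10), and protein sequences were not used here. Alternatives were other scalings, filters, DESeq2 1.42.0, fits of the compared groups, a fold threshold of 2, a replicate block, group names from the characteristics, other thresholds of the rule and leaving out each library. Leaving out Stage1 replicates 1 and 2 for the list genes was added after seeing the data. Replicate numbers pair no samples by the labels.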

Additional observations from a re-analysis of the deposited data

How the results depend on the processing

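The number of members was 42 with a 3-fold and 17 with a 10 CPM threshold, 26 to 29 when 1 library was left out, and within 1.5 times of 26 under the other settings. Without Stage1 replicate 2, Car2 and Dmrtc1b no longer met the rule; Car2 also failed it without Stage1 replicate 3, Stage2 replicate 1 or Stage2 replicate 3, and Hmgn5 without Stage2 replicate 2. With fits of only the groups compared, members called were 9 higher at Stage2 than in MEF, 5 lower in iPSC than at Stage2 and 10 higher in iPSC than in MEF, and fewer members passed the filter. With a fold threshold of 2, 0 were lower in iPSC than at Stage2 and 2 lower in iPSC than in MEF. With 1 library left out, 14 to 18 were higher and 1 to 2 lower at Stage2 than in MEF, 1 to 5 lower and 0 higher in iPSC than at Stage2, and 13 to 16 higher and 3 to 4 lower in iPSC than in MEF. These fits kept Stage1 libraries, so members that pass the filter only through Stage1 stay counted. With group names from the characteristics, the contrast of Stage2 and MEF sets libraries titled iPSC against those titled Stage1, and gave 0 members higher and 26 lower. In the same naming iPSC against Stage2 sets libraries titled MEF against those titled iPSC, and gave 4 higher and 16 lower. This is iPSC against MEF by titles with the sign turned. The contrast of iPSC and MEF sets libraries titled MEF against those titled Stage1, and gave 0 higher and 26 lower. Both results of 26 lower are contrasts with the libraries titled Stage1, which the rule used, so nothing is read from them. That naming keeps 0 of the 26 members and finds 19 other genes. The replicate block gave 17 higher and 1 lower for Stage2 against MEF, 3 lower for iPSC against Stage2, and 15 higher and 4 lower for iPSC against MEF, without the call of Dmrtc1b. Deviations of same-numbered libraries correlated from -0.132 to 0.245 (median 0.0514) over 18 pairs, and the numbers were not taken to pair samples. List genes called between Stage1 and the other groups were also counted in 5 settings. Those counts took in calls of other genes in place of untested list genes, among them Dcx, Aif1, Apoa1 and Amn. They are therefore not given and nothing is read from them. The list counts in the sections above hold tested genes only. Library totals in place of TMM shift the median of all genes by 0.39 for Stage2 against MEF, 0.28 for iPSC against MEF and 0.20 for Stage2 against Stage1 on the log2 scale, and changed no call of a member. Most members lie below 5 CPM outside Stage1, where few reads limit what can be told apart.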
